A study of Arabidopsis thaliana with 222 samples.

Results

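RMF217 is a *Paenibacillus* strain, and its effect on the root transcriptome was measured in wild-type Col-0 and in *lbd16-1*. The members were found by their genotype and treatment labels. They are 24 of the 222 root RNA-seq libraries of the series, 6 each of Col-0 with no bacteria (NB), Col-0 with RMF217, *lbd16-1* with NB and *lbd16-1* with RMF217, and all genes of the count table were analysed in them. *lbd16-1* carries a T-DNA insertion in *LBD16* (AT2G42430) in the Col-0 background. Week-old seedlings raised without microbes were moved to diluted MS agar plates that carried either 1 strain or the buffer alone, and roots were collected a week later, with several roots pooled for a replicate. The study describes 3 biological replicates in each of 2 repeats. The labels do not name the repeat, but the library numbers in the titles fall in each group into 3 from 1 to 111 and 3 from 112 to 222, called low-numbered and high-numbered libraries here. Library 1 to 3 of each group below are the high-numbered and 4 to 6 the low-numbered ones. The other strains were 15 in Col-0 (90 libraries) and 7 in *lbd16-1* (42 libraries), each grown alone with the plant.

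Lateral roots start from pericycle cells, where auxin acts through the response factors ARF7 and ARF19 to switch on LBD-type transcription factors, LBD16 among them. A plant that lacks LBD16 makes fewer lateral roots, and several bacteria in this series were grown with mutants of the pathway to ask whether their effect on the root needs it. The comparison with NB asks what RMF217 changed in each genotype, and the difference of both responses asks whether the loss of LBD16 changed that response. *LBD16* itself checks the labels. Its level was 3.6 to 5.45 CPM (counts scaled to the library total after TMM normalization) in the Col-0 NB libraries and 5.54 to 6.47 CPM in Col-0 with RMF217, while the *lbd16-1* libraries lay between 1.96 and 3.36 CPM. The mutant libraries were all below the Col-0 libraries, by 0.80 on the log2 scale under NB (standard error, SE, 0.13, adjusted p = 2.31e-06, both groups n = 6), and transcripts of the gene were still counted in them. In Col-0 the RMF217 libraries were all above the NB libraries (log2 fold change 0.41, SE 0.12, adjusted p = 0.0288), a call that was lost without the 2 libraries that stand apart, described next (adjusted p = 0.0508), with a variance for each group (0.277), and when any of NB 1, 3 or 4 or RMF217 4, 5 or 6 was left out (adjusted p = 0.0537 to 0.0876). Adjusted p-values throughout are Benjamini-Hochberg values from edgeR's quasi-likelihood test over all 21635 genes tested, with 0.05 as the threshold.

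The 24 libraries held 10255732 to 24316654 counts (median 17999268), and no root tissue marker of 14 was at 0 in any of them. Replicates differed by more than counting noise in all 60 pairs. Col-0 NB had the widest spread of the 37 groups, its variance between libraries being 1.93 times the median over groups. Library 4 of Col-0 NB held 2.17% ribosomal RNA counts, and library 1 of *lbd16-1* with RMF217 had 31 nuclear photosynthesis genes at 5171 CPM in sum against 1237 to 2231 CPM in the other 23 libraries. These are the 2 libraries that stand apart, and counts and calls without them are given for many of the results. Of the photosynthesis genes 0 were called against NB in either genotype. In the comparison of *lbd16-1* with the other strains 5 of 31 were called higher over all libraries and 24 of 31 among the high numbers, and without the 2 libraries 0 were called in either. In whole roots, fewer cells of a type and less RNA per cell cannot be told apart. The p-values measure the spread between libraries, part of which may be technical.

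Against NB, 878 genes were called in Col-0 (410 higher and 468 lower with RMF217, 4.06% of those tested) and 1049 in *lbd16-1* (648 higher and 401 lower, 4.85%). The Col-0 count depended on how the spread was modelled. It was 2 when only the own libraries were fitted and 20 in a limma voom fit with a variance for each group, against 280 and 939 in *lbd16-1*. Leaving out library 6 of RMF217 gave 231 genes in Col-0, and leaving out library 4 of RMF217 gave 491 in *lbd16-1*. Of the genes described here, 24 calls in Col-0 were lost and 0 held when only the own libraries were fitted. In *lbd16-1* 19 were lost and 15 held, and in the difference of the responses 11 were lost and 11 held. A total of 41 genes were called in the same direction in both genotypes, 27 higher and 14 lower, which is 4.67% of the Col-0 calls and 3.91% of the *lbd16-1* calls, and 15 were called in opposite directions. The count of 41 was 0 with the own libraries or with a variance for each group, 320 when only the low numbers were fitted, and 7 (without Col-0 RMF217 4) to 71 (without Col-0 RMF217 2 or 3) with 1 library less. Among the 878 genes, 24 higher and 46 lower had no overlap between the NB and the RMF217 libraries, and 104 and 74 among the 1049. Over all genes tested the shares without overlap were 0.596% and 1.31%.

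The response followed the library number. When each group was split into its 3 low-numbered and 3 high-numbered libraries, in a model of 74 groups, RMF217 differed from NB in Col-0 in 2868 genes among the low-numbered libraries (1283 higher and 1585 lower, 13.3%) and in 25 genes among the high-numbered ones (10 higher and 15 lower, 0.116%). In *lbd16-1* the counts were 1728 (7.99%) and 179 (0.827%). The change of the response between the ranges was itself called in 261 genes in Col-0 (1.21%) and 321 in *lbd16-1* (1.48%). Both genotypes showed 364 genes in the same direction among the low numbers, 206 of them higher and 158 lower, and 34 in opposite directions, and 0 in the same direction among the high numbers. The split model was added after the data had been seen. The Col-0 counts were sensitive to the spread. With a variance for each group, 220 genes were called among the low numbers, 21 among the high numbers and 8 between the ranges, and leaving out library 5 or library 6 of NB gave 513 or 5106 among the low numbers. Among the high numbers of Col-0, 9 to 50 genes were called with 1 library less. Between the ranges of Col-0 it was 59 without NB 2, 1533 without NB 6 and 460 without the 2 libraries that stand apart. The high-number count of *lbd16-1* moved too. It was 65 without RMF217 1, the library that stands apart, 67, 75 and 113 without NB 1, 2 or 3, and 477 with a variance for each group. The count between the ranges of *lbd16-1* was 170 without the 2 libraries and 156 to 325 with 1 library less (lowest without NB 3). Genes shared by both genotypes among the low numbers were 82 with a variance for each group and 195 without Col-0 NB 5.

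**Figure D1:**
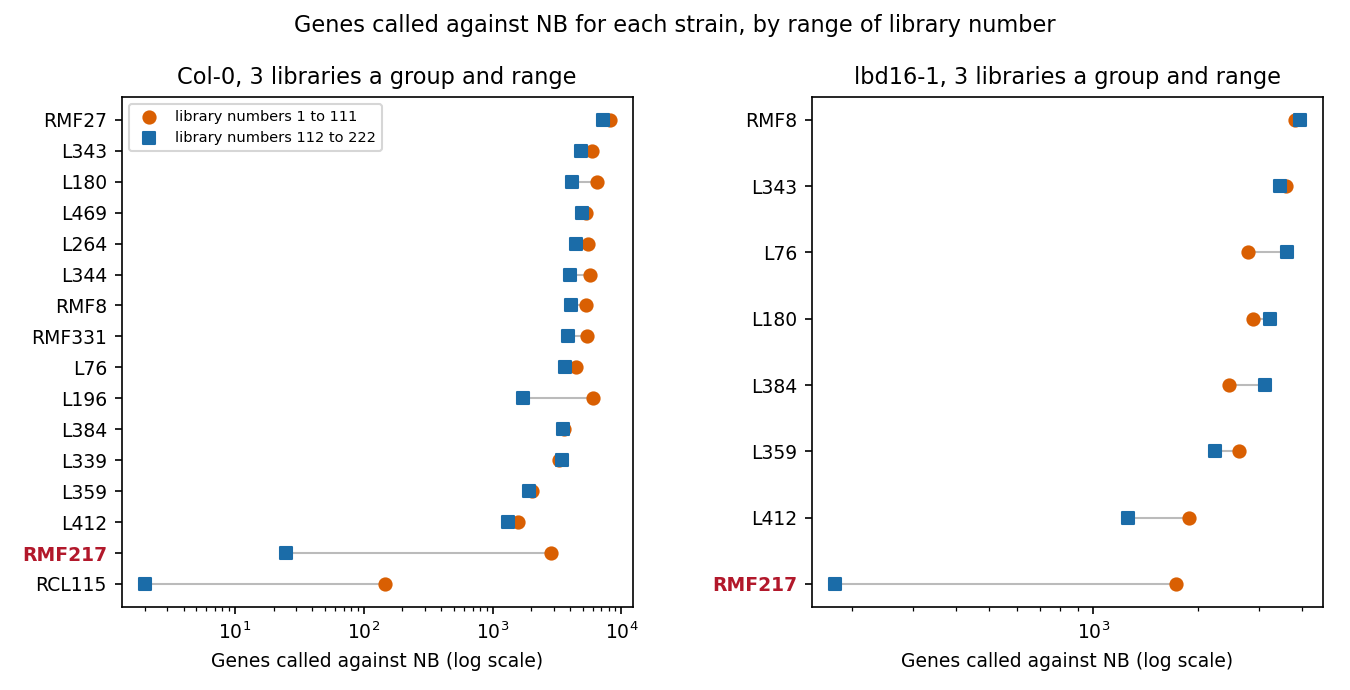
Genes called against NB for every strain (rows, with RMF217 in bold), in Col-0 (left) and *lbd16-1* (right). The log axis counts genes at an adjusted p under 0.05, circles for the low-numbered and squares for the high-numbered libraries. RMF217 went from 2868 to 25 genes in Col-0 and from 1728 to 179 in *lbd16-1*, while 14 of the other 15 strains in Col-0 lay between 1328 and 8094 in both ranges.

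Most other strains gave large counts in both ranges. In Col-0 the counts of the other 15 strains ran from 146 (RCL115) to 8094 (RMF27), with a median of 5323, among the low numbers, and from 2 (RCL115) to 7207 (RMF27), with a median of 3835, among the high numbers. In *lbd16-1* the other 7 strains ran from 1883 to 3826 and from 1261 to 3946. The RMF217 count was below that of every other strain but RCL115 in the high range of Col-0, and below that of all 7 in both ranges of *lbd16-1*. With a variance for each group the low-number order of *lbd16-1* did not hold, since RMF217 had 1627 genes and L359 1617. The strains share the NB libraries, so these counts are not independent of each other. In Col-0 other strains had fewer genes among the high numbers too, such as L196 (5998 low and 1723 high), while L339 had more (3290 and 3476). The change between the ranges was counted for RMF217 only, so its 261 and 321 genes have no counterpart in another strain here. Whether the range is the repeat of the experiment is not in the labels, nor is what else separates the ranges, and its part in these results was not tested. Values over all 6 libraries, among them the 878 and 1049 genes called against NB, are averages over both ranges.

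Receptor-type and signalling genes were among those on the higher side of the split. Genes named for the split were chosen because they were called the same way in both genotypes among the low numbers. A low-number change shared by the genotypes was thus a condition of the choice and not a separate result. *CIPK13* (AT2G34180), a kinase that acts with calcium sensors, was at 13.6, 13.6 and 25.1 CPM in the low-numbered Col-0 RMF217 libraries and at 2.88, 3.61 and 4.26 CPM in the high-numbered ones. The 6 NB libraries lay between 1.91 and 7.69 CPM, so only the low-numbered libraries rose above them. Its log2 fold change was 2.10 among the low numbers (SE 0.30, adjusted p = 1.26e-07) and -0.13 among the high numbers (adjusted p = 1), and the ranges differed by -2.23 (adjusted p = 0.00398). In *lbd16-1* the values were 12.5, 23.5 and 24.1 CPM against 2.78, 4.89 and 7.25 CPM (ranges differing by -1.93 on the log2 scale, adjusted p = 0.00592). The mean over the other strains was 20.7 and 16.7 CPM in the low and high numbers of Col-0, so the low-numbered RMF217 libraries lay near the other strains and the high-numbered ones near NB. Over all 6 libraries its Col-0 call was lost without library 4 of RMF217 (adjusted p = 0.125).

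*AT5G37450*, which encodes a leucine-rich repeat receptor-like kinase, had 20.9 to 24.4 CPM in the low-numbered and 3.52 to 4.66 CPM in the high-numbered Col-0 RMF217 libraries, against 2.53 to 9.54 CPM in NB. The high-minus-low difference was -2.54 on the log2 scale (adjusted p = 1.3e-05). In *lbd16-1* the same libraries gave 16 to 20.3 CPM and 4.84 to 5.24 CPM, and the difference of -1.32 did not pass (adjusted p = 0.054). *AT1G33840*, a LURP-one-related gene, was at 2.31 to 3.08 CPM in the low and 0.0991 to 0.352 CPM in the high numbers of Col-0, and its difference of -4.54 passed (adjusted p = 0.00291). *AT2G22122*, whose function is not annotated, followed the same course in both genotypes (-1.44, adjusted p = 0.00551 in Col-0, and -1.57, adjusted p = 0.000563 in *lbd16-1*). Their levels in the high-numbered RMF217 libraries overlapped with NB in each case. In Col-0 the change between the ranges was lost with a variance for each group for *CIPK13*, *AT5G37450*, *AT1G33840* and *AT2G22122* (adjusted p = 0.0947 to 0.501), whereas in *lbd16-1* it was called for *CIPK13* and *AT2G22122* under that model too. Without library 2 of NB the Col-0 change was lost for *CIPK13*, *AT1G33840* and *AT2G22122* (adjusted p = 0.0609 to 0.141), and without library 1 of NB the *lbd16-1* change was lost for *CIPK13* (0.0762). That of *AT5G37450* in Col-0 and that of *AT2G22122* in *lbd16-1* held with any 1 library left out.

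A peroxidase and a lectin receptor kinase had the largest rises among these genes in *lbd16-1*. *AT3G03670*, a class III peroxidase, was at 23.2 to 28.6 CPM in the low-numbered and 0.854 to 3.11 CPM in the high-numbered *lbd16-1* RMF217 libraries, against 0.504 to 1.25 CPM in NB. It rose by 4.37 on the log2 scale among the low numbers (SE 0.60, adjusted p = 1.01e-08), and its change between the ranges did not pass (-3.21, adjusted p = 0.159). *AT2G29220*, the kinase, was at 22 to 53.6 CPM and 0.712 to 3.8 CPM, with a rise of 5.26 among the low numbers (SE 0.81, adjusted p = 3.94e-07) and a change between the ranges that did not pass either (adjusted p = 0.136). In Col-0 both genes spread widely over the low numbers, *AT3G03670* from 2.41 to 14.5 CPM and *AT2G29220* from 1.68 to 24.7 CPM, and library 4 was the highest each time. Their low-number calls in Col-0 (adjusted p = 0.00835 and 0.0189) were lost without that library (0.219 and 0.596), without NB 5 (0.0761 and 0.14) and, for *AT2G29220*, without NB 4 (0.0879).

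Genes of oxidative and mitochondrial stress were among those on the lower side. *ChlAKR* (AT2G37770), an aldo-keto reductase, was at 3.89 to 5.27 CPM in the low-numbered and 18.4 to 21.7 CPM in the high-numbered Col-0 RMF217 libraries, against 7.57 to 14.2 CPM and 14.3 to 27.3 CPM in NB. The low-numbered RMF217 libraries were below all 6 NB libraries and the high-numbered ones were within their range. The fold change was -1.30 on the log2 scale among the low numbers (SE 0.23, adjusted p = 3.02e-05), and the ranges differed by 1.32 (adjusted p = 0.0108). *UGT74E2* (AT1G05680), which glucosylates the auxin precursor indole-3-butyric acid, was at 24 to 33.4 CPM against 86.1 to 116 CPM, and *lbd16-1* had 21.6 to 28 CPM against 56.2 to 62.1 CPM. The ranges of *UGT74E2* differed in both genotypes (1.03, adjusted p = 0.0168, and 1.19, adjusted p = 0.00429).

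*AOX1A* (AT3G22370), the main alternative oxidase, had 85.6 to 87.4 CPM in the low-numbered and 132 to 148 CPM in the high-numbered Col-0 RMF217 libraries, with NB at 125 to 174 CPM. In *lbd16-1* the values were 81.1 to 95.1 CPM and 122 to 135 CPM, with NB at 104 to 134 CPM. The ranges of *AOX1A* differed by 0.55 and 0.40 on the log2 scale (adjusted p = 0.00317 and 0.0479). *AT2G21640*, which is induced by oxidative stress, and *AT4G33070*, a pyruvate decarboxylase of fermentation, moved the same way in Col-0 (2.21, adjusted p = 0.00066, and 0.97, adjusted p = 0.00899). Phytoglobin *HB1* (AT2G16060), which scavenges nitric oxide, fell in the low numbers of both genotypes (-0.91 and -1.09), and its change between the ranges was not called (adjusted p = 0.0825 and 0.102). Of the 11 genes listed for alternative oxidase and mitochondrial stress, 0 were higher and 5 lower among the low numbers of Col-0, where 13.3% of all genes were called, with a median log2 fold change of -0.48. Among the high numbers, where 0.116% were called, 0 of the 11 were. In *lbd16-1* 3 were lower among the low numbers, and 1 was higher and 1 lower among the high numbers (7.99% and 0.827% of all genes). In Col-0 the changes between the ranges of *ChlAKR*, *UGT74E2*, *AOX1A* and *AT4G33070* were lost with a variance for each group (adjusted p = 0.0761 to 0.118), and the fall of *HB1* was lost with it (0.143) and without library 5 of NB (0.168). With 1 library less the Col-0 change was lost for *ChlAKR* without NB 2, 3 or 5 or RMF217 4 (0.0508 to 0.0924), for *UGT74E2* without NB 2, 3 or 5 or RMF217 3 or 4 (0.0556 to 0.135), for *AOX1A* without NB 5 (0.0628) and for *AT4G33070* without NB 2 or 3 or RMF217 4 (0.0651 to 0.0717), and it held for *AT2G21640*. In *lbd16-1* that of *UGT74E2* held, and that of *AOX1A* was lost without any of 8 of the 12 libraries (0.0513 to 0.192) and without the 2 libraries that stand apart (0.125).

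**Figure D2:**
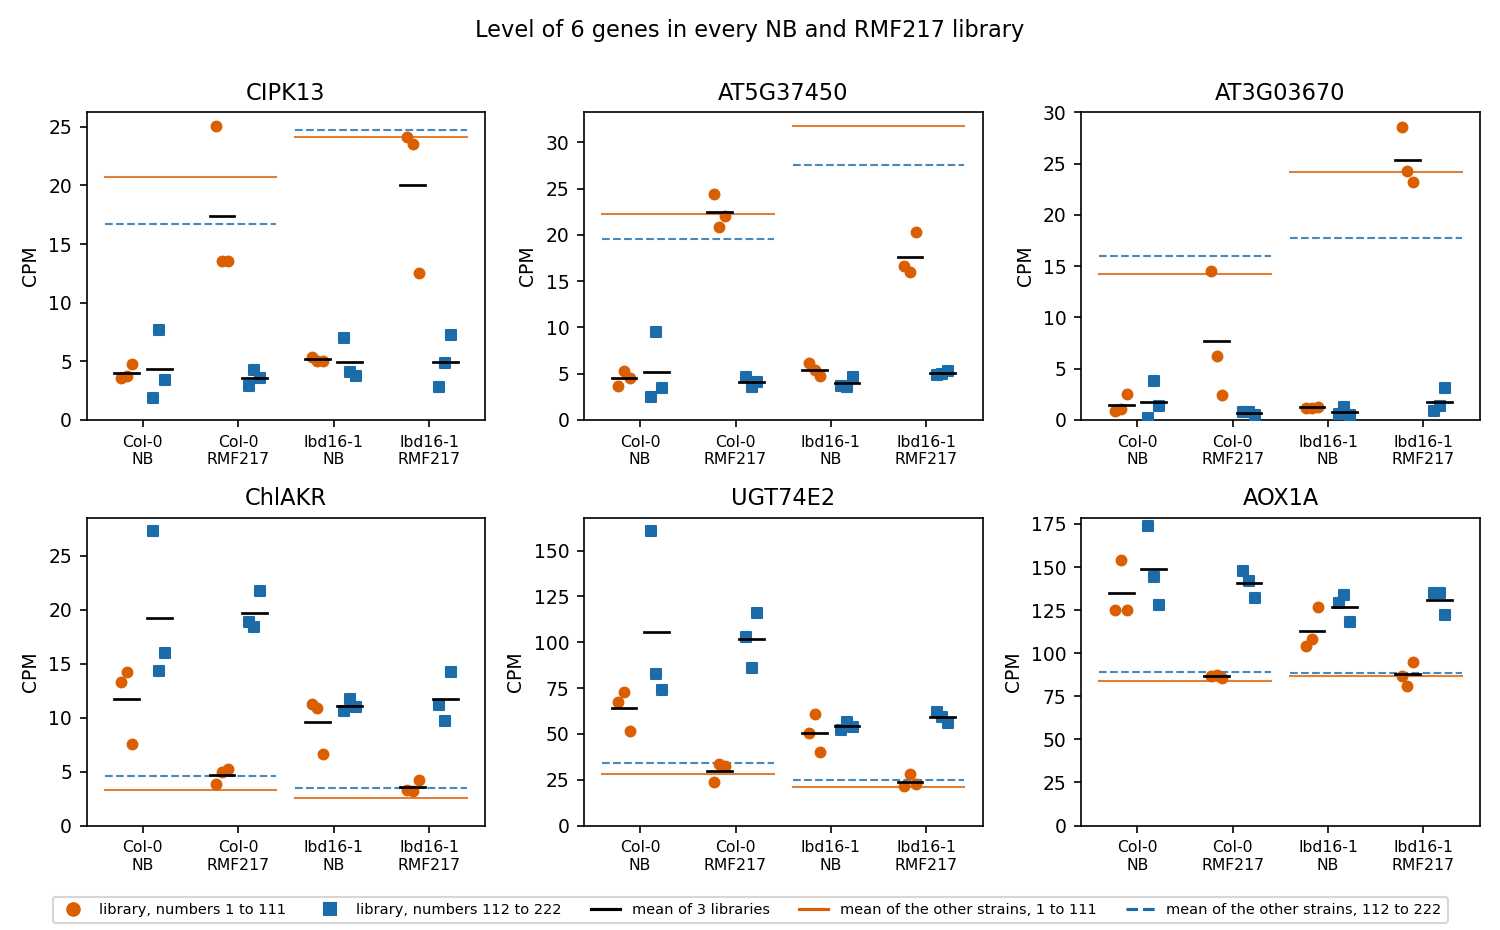
Level in CPM (axes start at 0) of 6 genes in each NB and RMF217 library. Circles are low-numbered and squares high-numbered libraries, black bars are means of 3, and horizontal lines are the mean over the other strains in each range (solid for low, dashed for high). The high-numbered RMF217 libraries lie among the NB libraries or close to them in all 6 panels, while the low-numbered ones lie toward the other strains' mean, with *AT3G03670* in Col-0 spread from 2.41 to 14.5 CPM.

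In Col-0 iron deficiency regulators fell, *bHLH38* and *bHLH39* in both number ranges. The bHLH proteins named here are induced when a root lacks iron and help to switch on iron uptake genes. *bHLH38* (AT3G56970) was at 10.9 to 51.2 CPM in the NB libraries and 2.81 to 8.77 CPM in the RMF217 libraries of Col-0. The groups did not overlap, and the log2 fold change was -1.90 (SE 0.30, adjusted p = 1.4e-05). It fell in both ranges, by 1.52 among the low numbers (adjusted p = 0.000831) and by 2.13 among the high numbers (adjusted p = 2.15e-06). *bHLH39* (AT3G56980) fell by 1.14 (SE 0.16, adjusted p = 3.14e-07), from 50.7 ± 16.6 to 23.0 ± 6.98 CPM (SD, n = 6 each), with its calls in both ranges at adjusted p = 0.000202 and 2.83e-07.

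*BHLH100* (AT2G41240) fell from 2.66 ± 2.12 to 0.425 ± 0.379 CPM (SD, n = 6 each), with adjusted p = 0.00166, and its call rested on the high numbers (adjusted p = 0.00108 against 0.0961 in the low numbers). In that group library 1 of NB was far above the rest for *bHLH38* and *BHLH100* (51.2 and 6.85 CPM), and without it the adjusted p of *bHLH38* and *BHLH100* were 0.00268 and 0.0235. Within the high numbers the call of *BHLH100* was lost without it (0.0847). *MYB10* (AT3G12820), a MYB factor of the iron response, fell by 1.01 (adjusted p = 0.00281), and *CYP82C4* (AT4G31940), which makes sideretin, a coumarin that mobilizes iron, fell by 1.23 (adjusted p = 0.0163) from 345 ± 184 to 148 ± 76.0 CPM (SD, n = 6 each). Leaving out NB 1, NB 5 or RMF217 6 ended the call of *CYP82C4* (adjusted p = 0.0574 to 0.0888). Of 15 listed iron genes 5 were lower, against 2.16% of all genes called lower in Col-0, and 1 was higher, with a median log2 fold change of -0.34 against -0.003 over all genes. With a variance for each group *bHLH38* and *bHLH39* were still called (adjusted p = 0.0102 and 0.000475), and *BHLH100*, *MYB10* and *CYP82C4* were not (0.13, 0.0817 and 0.204). With the own libraries only, the Col-0 calls of *bHLH38* and *bHLH39* were lost too (0.232 and 0.231).

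In *lbd16-1* these genes did not fall. *bHLH38* rose from 3.4 to 5.21 CPM under NB to 6.21 to 13 CPM with RMF217, without overlap (log2 fold change 1.06, SE 0.32, adjusted p = 0.0341), and the call was lost when any of NB 1, 3 or 4 or RMF217 4, 5 or 6 was left out (adjusted p = 0.0646 to 0.145). That call was also lost with a variance for each group (0.0809) and held with the own libraries only (0.0245). With only the low-numbered libraries fitted the rise was 1.47 (adjusted p = 0.00245), and with only the high-numbered ones 0.48 (0.667). The level of *bHLH38* under NB was lower in *lbd16-1* than in Col-0 by 2.30 on the log2 scale (adjusted p = 1.1e-08), whereas with RMF217 the genotypes did not differ by the test (0.65, adjusted p = 0.164). The responses differed between the genotypes by 2.95 for *bHLH38* (SE 0.44, adjusted p = 2.03e-06), by 1.43 for *bHLH39* (adjusted p = 1.16e-05), by 4.30 for *BHLH100* (adjusted p = 0.00161) and by 1.08 for *MYB10* (adjusted p = 0.028). The last was lost without Col-0 NB 1 or 5, Col-0 RMF217 6, *lbd16-1* NB 4 or *lbd16-1* RMF217 5 or 6 (0.0523 to 0.102) and with a variance for each group (0.105). With the own libraries only, the differences of *bHLH38*, *bHLH39* and *BHLH100* were still called (0.00446, 0.0115 and 0.0166). In the difference of the responses, 911 genes were called in all (467 higher in *lbd16-1* and 444 lower, 4.21%), and of the 15 iron genes 4 were higher and 1 lower.

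**Figure D3:**
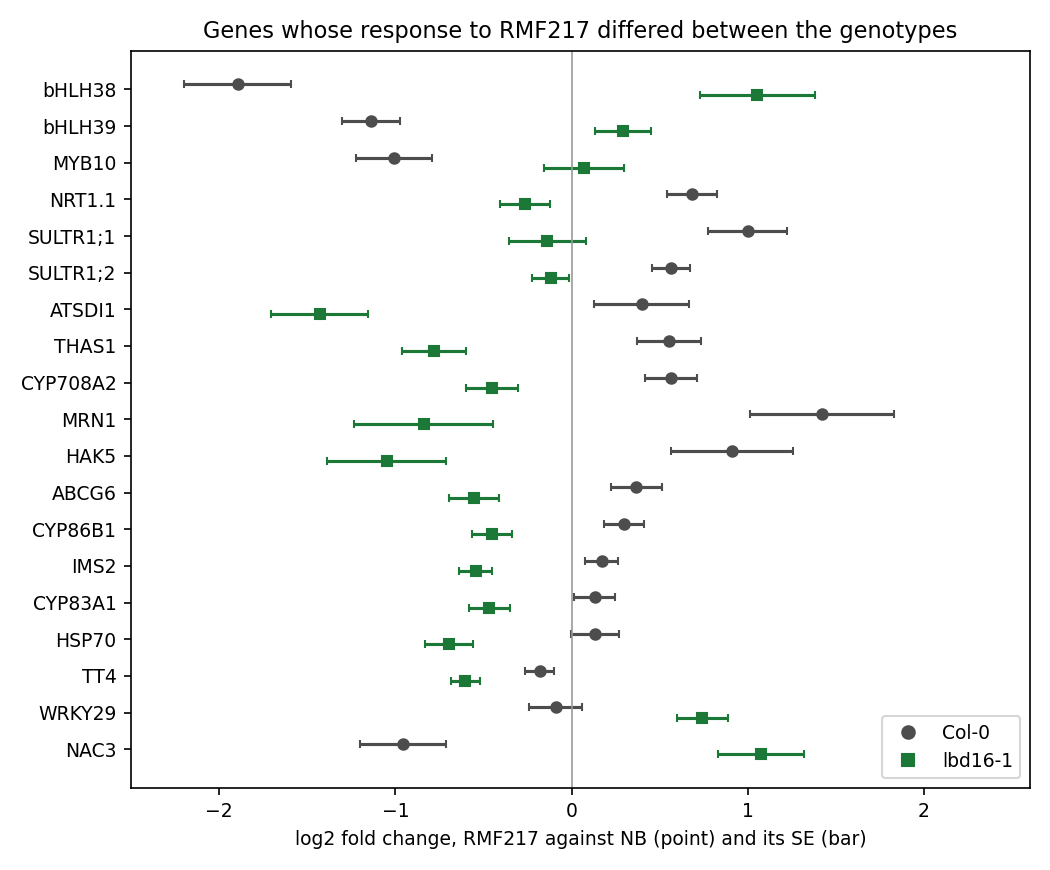
Log2 fold change (point) and SE (bar) of RMF217 against NB in Col-0 (circles) and *lbd16-1* (squares) for 19 genes whose responses differed at an adjusted p under 0.05. bHLH38 was at -1.90 in Col-0 and 1.06 in *lbd16-1*, and HSP70 at 0.13 and -0.70.

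Nitrate and sulfate uptake genes rose in Col-0. *NRT2:1* (AT1G08090), the main high-affinity nitrate transporter, was at 4.62 to 13.5 CPM in NB and 13.6 to 28.8 CPM with RMF217, without overlap, and rose by 1.35 on the log2 scale (SE 0.33, adjusted p = 0.00767). It rose by 1.14 in *lbd16-1* too (adjusted p = 0.0153), a call lost without NB 2, RMF217 4 or RMF217 6 (0.0514 to 0.113) and with a variance for each group (0.0527). In both genotypes *NRT2:1* was called among the low numbers and not among the high numbers. *NRT1.1* (AT1G12110), the nitrate transporter and sensor, rose from 728 ± 95.4 to 1170 ± 186 CPM in Col-0 (SD, n = 6 each, adjusted p = 0.00158), and was not called in *lbd16-1*, where its log2 fold change was -0.27. The responses of *NRT1.1* differed by -0.95 (SE 0.20, adjusted p = 0.00159). *WR3* (AT5G50200), a partner of NRT2:1, and *HRS1* (AT1G13300), a nitrate-induced transcription factor, rose by 0.45 and 0.44 (adjusted p = 0.0195 and 0.00569). Both calls rested on the low numbers, and *WR3* lost it without NB 5, RMF217 4, 5 or 6 (0.062 to 0.099) and *HRS1* without RMF217 5 or 6 (0.0524 and 0.0507). Of 15 listed nitrate genes 4 were higher in Col-0 and 0 lower, against 1.9% of all genes called higher. Among the low numbers 6 of these 15 genes were higher and among the high numbers 0, where 13.3% and 0.116% of all genes were called. With a variance for each group the Col-0 calls of *NRT2:1*, *NRT1.1*, *WR3* and *HRS1* were lost (adjusted p = 0.0817 to 0.22).

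The root sulfate transporters *SULTR1;1* (AT4G08620) and *SULTR1;2* (AT1G78000) rose in Col-0 by 1.00 and 0.57 (adjusted p = 0.00408 and 0.000525). *SULTR1;2* was at 639 to 934 CPM in NB and 855 to 1500 CPM with RMF217, with overlap between the groups. Both were called among the low numbers (adjusted p = 2.91e-05 and 2.18e-05) and not among the high numbers (0.807 and 0.399). They were the 2 genes called higher of 13 listed sulfur genes in Col-0, where 0 were lower, against 1.9% of all genes called higher. Among the low numbers 2 of the 13 were higher and 2 lower, where 13.3% of all genes were called. In *lbd16-1* the values of *SULTR1;1* and *SULTR1;2* were -0.14 and -0.12, and the differences of the responses were -1.14 (adjusted p = 0.0191) and -0.68 (adjusted p = 0.00226). The first was lost without library 3 of Col-0 NB or library 6 of Col-0 RMF217 (0.0558 and 0.063), and with a variance for each group so were it (0.114) and the Col-0 call of *SULTR1;1* (0.193). *ATSDI1* (AT5G48850), which is induced by sulfur deficiency, fell in *lbd16-1* from 35.7 to 97.4 CPM under NB to 7.85 to 47.2 CPM (log2 fold change -1.43, SE 0.28, adjusted p = 0.000143). The groups overlapped there, and within the low and the high numbers the fall was called in each (adjusted p = 9.22e-06 and 0.00763), the latter not without NB 2, RMF217 1 or RMF217 2 (0.0517 to 0.0971). Of 13 sulfur genes 0 were higher and 5 lower in *lbd16-1*, against 1.85% of all genes lower.

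Triterpene genes of the root rose in Col-0. *MRN1* (AT5G42600), the marneral synthase, was at 6.07 to 28.1 CPM in NB and 27.9 to 67.9 CPM with RMF217 in Col-0 (1.42, SE 0.41, adjusted p = 0.0282). Its partner *CYP71A16* (AT5G42590) rose by 0.46 (adjusted p = 0.0388) and *CYP708A2* (AT5G48000), thalianol hydroxylase, by 0.57 (adjusted p = 0.014). The call of *MRN1* was lost without NB 3 or 5 or RMF217 4, 5 or 6 (adjusted p = 0.0564 to 0.0988), that of *CYP71A16* without NB 1, 3 or 5 or RMF217 1, 4, 5 or 6 (0.054 to 0.151) and that of *CYP708A2* without NB 1 or 3 or RMF217 4 or 6 (0.0502 to 0.0551). All 3 were lost with a variance for each group (0.181 to 0.223). *THAS1* (AT5G48010), the thalianol synthase, was at 450 ± 92.7 and 660 ± 102 CPM in Col-0 (adjusted p = 0.0588) and fell in *lbd16-1* by 0.78 on the log2 scale, from 607 to 1020 CPM under NB to 225 to 680 CPM with RMF217 (adjusted p = 0.00239). The responses of *MRN1* and *THAS1* differed by -2.26 and -1.33 (adjusted p = 0.00891 and 0.000526). Of 12 listed terpene genes 5 were higher in Col-0 and 0 lower, against 1.9% of all genes called higher. Within the number ranges 3 were higher among the low and 0 among the high numbers, where 13.3% and 0.116% of all genes were called. In the difference of the responses 1 was higher and 6 lower, where 4.21% of all genes were called. *HAK5* (AT4G13420), the high-affinity potassium transporter, and the transcription factor gene *NAC3* (AT3G15500) also differed between the genotypes (-1.96, adjusted p = 0.0077, and 2.04, adjusted p = 4.62e-05).

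In *lbd16-1* with RMF217, most of the listed aliphatic glucosinolate and flavonoid genes were called lower, and a smaller part of the suberin and heat shock genes. Of 12 genes of aliphatic glucosinolate synthesis 10 were lower and 0 higher, against 1.85% of all genes called lower in *lbd16-1*. Among the low numbers 10 were lower, and among the high numbers 1 was, and 0 without the 2 libraries that stand apart. Of all genes 7.99% were called among the low and 0.827% among the high numbers. The 10 included *IMS2* (AT5G23020), which builds the side chains of methionine-derived glucosinolates, at 288 to 360 CPM under NB and 186 to 279 CPM with RMF217. Those groups did not overlap (log2 fold change -0.55, SE 0.09, adjusted p = 1.34e-05). *CYP83A1* (AT4G13770), a later enzyme of the pathway, fell by 0.47 (adjusted p = 0.00469, and 0.0526 without library 4 of RMF217). Among the high numbers *IMS2* and *CYP83A1* were at -0.39 and -0.31 (adjusted p = 0.106 and 0.455). In Col-0 the log2 fold changes of these 2 genes were 0.17 and 0.13, and the responses differed by -0.72 and -0.60 (adjusted p = 0.000209 and 0.0169, the latter 0.0664 with a variance for each group).

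Among the flavonoid genes *TT4* and *F3H* fell in both ranges of *lbd16-1*. *TT4* (AT5G13930), the chalcone synthase, was at 972 to 1090 CPM under NB and 613 to 770 CPM with RMF217, without overlap (-0.60, SE 0.08, adjusted p = 7.69e-08), and the low- and high-numbered values were -0.61 and -0.59 (adjusted p = 1.95e-06 and 6.71e-05). *F3H* (AT3G51240), flavanone 3-hydroxylase, fell by 0.65 (adjusted p = 9.99e-05), also in both ranges. *TT5* (AT3G55120), chalcone isomerase, was 1 of 2 genes of the list of 10 called lower in Col-0 (-0.53, adjusted p = 0.00392, and 0.129 with a variance for each group). Of the 10, 6 were lower in *lbd16-1*, against 1.85% of all genes called lower, and 4 without the 2 libraries that stand apart. The responses of *TT4* differed by -0.42 (adjusted p = 0.0208, and 0.0855 without library 5 of Col-0 NB).

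*HSP70* (AT3G12580), a heat shock chaperone, fell in *lbd16-1* from 550 to 780 CPM under NB to 285 to 541 CPM with RMF217, without overlap (-0.70, SE 0.14, adjusted p = 0.000197), and its fall was called in both ranges (adjusted p = 3.11e-09 and 8.45e-05). *ABCG6* (AT5G13580), which exports suberin monomers, and *CYP86B1* (AT5G23190), which makes very long chain hydroxy acids of suberin, fell by 0.55 and 0.45 (adjusted p = 0.00798 and 0.00599), and were called among the low numbers only (*CYP86B1* not without NB 6, adjusted p = 0.0851). *ABCG6* was lost without library 5 of RMF217 (adjusted p = 0.0641). Of 24 suberin and Casparian strip genes 8 were lower in *lbd16-1* and 0 higher, with 7 lower and 1 higher among the low numbers and 0 called among the high numbers. Of 18 heat shock genes 4 were lower, with 4 and 3 in the ranges. Over all libraries these counts stand beside 1.85% of all genes called lower, and within the low and high numbers beside 7.99% and 0.827% called. Of the 24 genes 6 had a positive log2 fold change over all libraries, and of the 18 genes 7 did. The medians of these 2 lists were -0.115 and -0.065, against 0.004 over all genes.

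Salicylic acid and defence genes rose in *lbd16-1*. *PBS3* (AT5G13320), an enzyme of salicylic acid synthesis, was at 10.9, 16.8 and 26.6 CPM in the low-numbered RMF217 libraries, 1.98, 1.99 and 4.49 CPM in the high-numbered ones and 1.51 to 3.12 CPM in NB. It rose by 2.24 on the log2 scale (SE 0.46, adjusted p = 0.000352, and 0.0632 with a variance for each group). *FMO1* (AT1G19250) and *ALD1* (AT2G13810) of the N-hydroxypipecolic acid pathway rose by 2.27 and 1.35 (adjusted p = 0.000213 and 3.59e-07), and *CBP60G* (AT5G26920), a regulator of salicylic acid synthesis, by 1.46 (adjusted p = 0.000916). With the own libraries only, *ALD1* was still called (0.0294), and *PBS3*, *FMO1* and *CBP60G* were not (0.132, 0.136 and 0.147). Among the high numbers *PBS3*, *FMO1*, *ALD1* and *CBP60G* were at 0.42, 0.66, 0.84 and 0.32 (adjusted p = 0.92, 0.822, 0.0789 and 0.889), and none of their changes between the ranges passed (adjusted p = 0.113 to 0.233). When only the high-numbered libraries were fitted, *ALD1* was called (adjusted p = 0.0277).

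*EDS16* (AT1G74710), the isochorismate synthase, rose in both genotypes, by 0.65 in Col-0 and by 0.44 in *lbd16-1* (adjusted p = 0.00392 and 0.0398). The Col-0 call was lost with a variance for each group (0.21), and the *lbd16-1* call without NB 1, 2, 4 or 6 or RMF217 4, 5 or 6 (0.0502 to 0.202). Among the defence transcription factors *WRKY29* (AT4G23550), *WRKY54* (AT2G40750) and *WRKY70* (AT3G56400) rose in *lbd16-1* by 0.74, 0.96 and 0.86, the call of *WRKY54* being lost with the own libraries only (0.133). *WRKY70* was at 0.94 among the low and 0.75 among the high numbers, and *WRKY54* at 1.41 and 0.23, a difference called for *WRKY54* (adjusted p = 0.0341) but not without the 2 libraries that stand apart (0.139) or without any of 10 of the 12 libraries (0.0501 to 0.139). Of 20 listed factors 5 were higher and 0 lower, and 9 higher without the 2 libraries. In Col-0 those 20 factors had 0 calls. The number of higher genes among the 13 salicylic acid genes was 5 in *lbd16-1* against 1 in Col-0, and the difference of the responses was called for 0 of them and for *WRKY29* alone of the 20 factors. Without the 2 libraries that stand apart these counts were 5 (4 higher and 1 lower) and 3. In *lbd16-1*, 3% of all genes were called higher. Among its high numbers, where 0.827% of all genes were called, none of the 13 and none of the 20 were.

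Clock genes moved in *lbd16-1* as well. *LHY* (AT1G01060), a morning-phased regulator of the circadian clock, was at 65.8 to 96 CPM under NB and 26.6 to 57.1 CPM with RMF217 (-0.95, SE 0.15, adjusted p = 1.13e-06), without overlap, and it fell in both ranges (adjusted p = 4.43e-20 and 4.54e-08). *PRR5* (AT5G24470), a repressor of it, rose from 5.98 ± 1.06 to 10.3 ± 2.08 CPM (adjusted p = 9.99e-05). *CCA1* (AT2G46830) fell in both genotypes, by 0.43 in Col-0 and by 0.49 in *lbd16-1* (adjusted p = 0.0178 and 0.00281), the Col-0 call being lost without NB 1, RMF217 4, 5 or 6 (0.057 to 0.0791) and with a variance for each group (0.208). Of 16 clock genes 5 were higher and 4 lower in *lbd16-1*, against 3% and 1.85% of all genes. In Col-0 1 was higher and 2 lower, against 1.9% and 2.16%. In the difference of the responses 1 was higher and 0 lower, where 4.21% of all genes were called. Among the low numbers 3 were higher and 3 lower in Col-0, and 6 and 4 in *lbd16-1*. There 13.3% and 7.99% of all genes were called. The harvest time of each library is not in the labels, and its part in these values was not tested.

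One gene of the difference was set by 1 library. *AT2G01020*, a 5.8S ribosomal RNA gene of a multicopy family, was at 2220 CPM in library 4 of Col-0 NB against 7.2 to 155 CPM in the other 5 NB libraries and 14.7 to 29.6 CPM with RMF217. Its log2 fold change of -4.39 in Col-0 had an adjusted p of 2.09e-11, and without that library 0.0408. The difference of the responses, 4.75, had an adjusted p of 9.89e-07 with it and 0.0644 without it.

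The comparison with the other strains used no NB library and set RMF217 against the mean of the other strains of the same genotype. It called 4682 genes in Col-0 (21.6%, of which 2429 were higher with RMF217) and 2249 in *lbd16-1* (10.4%). Lower genes made up 10.4% of all tested in Col-0 and 5.22% in *lbd16-1*, and higher ones 11.2% and 5.17%. In 1460 genes the direction was the same in both genotypes (714 higher and 746 lower, 31.2% of the Col-0 and 64.9% of the *lbd16-1* calls), and in 9 it was opposite. The 746 lower genes had a median of -0.47 in both genotypes against the other strains and 0.18 and 0.11 against NB, values that share the RMF217 libraries. Without the 2 libraries that stand apart 1379 genes were called in *lbd16-1* and 953 in both.

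The number range mattered here too. Among the high numbers 4942 genes were called in Col-0 (22.8%) and 3635 in *lbd16-1* (16.8%), and among the low numbers 1037 (4.79%) and 351 (1.62%). The ranges differed in 923 genes in Col-0 (4.27%) and 1110 in *lbd16-1* (5.13%). A total of 2439 genes were called in the same direction in both genotypes among the high numbers (49.4% of the Col-0 and 67.1% of the *lbd16-1* calls) and 73 among the low numbers. More genes were called in the high-numbered than in the low-numbered RMF217 libraries, in both genotypes. Without the 2 libraries that stand apart the high numbers of *lbd16-1* gave 2099 genes, the ranges of *lbd16-1* differed in 665, and 1683 genes were called in both genotypes among the high numbers. With 1 library less the low numbers gave 164 (without RMF217 6) to 937 genes in Col-0 and 79 (without RMF217 4) to 209 in *lbd16-1*, and the high numbers 3184 (without RMF217 1) to 3800 in Col-0 and 2101 (without RMF217 1) to 2641 in *lbd16-1*.

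Root hair genes were lower than with the other strains. *RHS19* (AT5G67400), a peroxidase of the growing root hair, was at 65.6 ± 17.2 CPM in Col-0 and 60.3 ± 18.3 CPM in *lbd16-1* with RMF217 (SD, n = 6 each). The other strains had a median of 131 CPM over their means in Col-0 and 112 CPM in *lbd16-1*, and 14 of 15 and 7 of 7 of them lay above RMF217. The log2 difference was -0.98 in Col-0 (SE 0.15, adjusted p = 2.08e-08) and -1.02 in *lbd16-1* (SE 0.15, adjusted p = 6.96e-08). *RHS13* (AT4G02270), a cell wall protein of root hairs, was lower by 0.90 and 0.97 (adjusted p = 1.14e-07 and 1.11e-07), and *XTH26* (AT4G28850), a wall-loosening xyloglucan enzyme of root hairs, by 2.00 and 2.96 (adjusted p = 7.65e-08 and 1.27e-10). All 42 libraries of the other strains in *lbd16-1* had more *XTH26* than any RMF217 library. Of 27 root hair genes 20 were lower in Col-0 and 23 in *lbd16-1*, and 0 were higher. The shares of all genes called lower were 10.4% and 5.22%. The low numbers had 6 and 12 lower, where 4.79% and 1.62% of all genes were called, and the high numbers 20 and 23 (22.8% and 16.8%). Against NB, 9 of these 27 genes were higher and 1 lower among the low numbers of Col-0, and 8 and 0 among those of *lbd16-1*, where 13.3% and 7.99% of all genes were called. Of the 27, 0 were higher among the high numbers of either genotype, and 1 was lower in *lbd16-1*. There 0.116% of all genes were called against NB in Col-0 and 0.827% in *lbd16-1*.

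Auxin and lateral root genes were lower as well. *BRU6* (AT4G37390), a GH3 enzyme that conjugates auxin to amino acids, was at 32.2 to 65.5 CPM in Col-0 with RMF217 and 18.5 to 66.9 CPM in NB, while the strain means of 14 of 15 other strains lay above the RMF217 mean, up to 293 CPM in RMF27. The log2 difference from the other strains was -1.87 in Col-0 (SE 0.17, adjusted p = 1.87e-19) and -1.28 in *lbd16-1* (SE 0.16, adjusted p = 1.19e-10). Against NB, *BRU6* rose in *lbd16-1* by 1.15 (adjusted p = 1.43e-05), from 32 to 39.8 CPM to 49.6 to 106 CPM, without overlap. *WES1* (AT4G27260), another GH3 enzyme, was lower than with the other strains by 1.01 and 0.63 (adjusted p = 4.78e-10 and 0.000297). Of 21 auxin response genes 15 were lower in Col-0 and 10 in *lbd16-1*, and 1 was higher in each. Of all genes 10.4% and 5.22% were called lower. The low numbers had 11 and 4 lower and 0 higher, where 4.79% and 1.62% of all genes were called. The high numbers had 10 lower and 1 higher in each genotype, where 22.8% and 16.8% were called.

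*LBD29* (AT3G58190) and *LBD18* (AT2G45420), which act beside LBD16 in lateral root initiation, were lower than with the other strains in both genotypes. *LBD29* was lower by 1.42 in Col-0 and by 0.93 in *lbd16-1* (adjusted p = 5.63e-10 and 0.00022). *LBD18* passed in Col-0 (adjusted p = 1.16e-06), and its difference of -0.79 in *lbd16-1* (adjusted p = 0.00308) was lost with a variance for each group (0.0651). *LBD29* was at 3.66 ± 1.02 CPM with RMF217 and 3.02 ± 1.37 CPM in NB of Col-0 (SD, n = 6 each), a difference not called, against up to 31.3 CPM in L343. Some other strains were near RMF217, with Col-0 means of 3.62 CPM in RCL115, 4.39 CPM in L412 and 4.59 CPM in L384. In *lbd16-1* RMF217 was at 3.67 CPM, L359 at 4.02 CPM, L412 at 4.04 CPM and L343 at 22.5 CPM. *AIR1* (AT4G12550), a cell wall protein induced by auxin in lateral roots, was chosen after its values were seen. With RMF217 *AIR1* was at 282 ± 144 CPM in Col-0 and 261 ± 82.5 CPM in *lbd16-1*, and the log2 difference from the other strains was -1.60 and -1.40 (adjusted p = 1.83e-08 and 3.19e-06). The means of the other strains ran from 225 CPM (RCL115) to 3170 CPM (L264) in Col-0. In *lbd16-1* they ran from 293 CPM (L359) and 304 CPM (L412) to 3890 CPM (L343). Of 22 lateral root genes 7 were lower and 1 higher in Col-0, and 5 were lower in *lbd16-1*, and 3 there without the 2 libraries that stand apart, against 10.4% and 5.22% of all genes called lower. The low numbers had 5 and 1 lower, with 1 higher in *lbd16-1*, and the high numbers 8 and 6, with 1 higher in Col-0, where 4.79% and 1.62%, and 22.8% and 16.8%, of all genes were called.

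**Figure D4:**
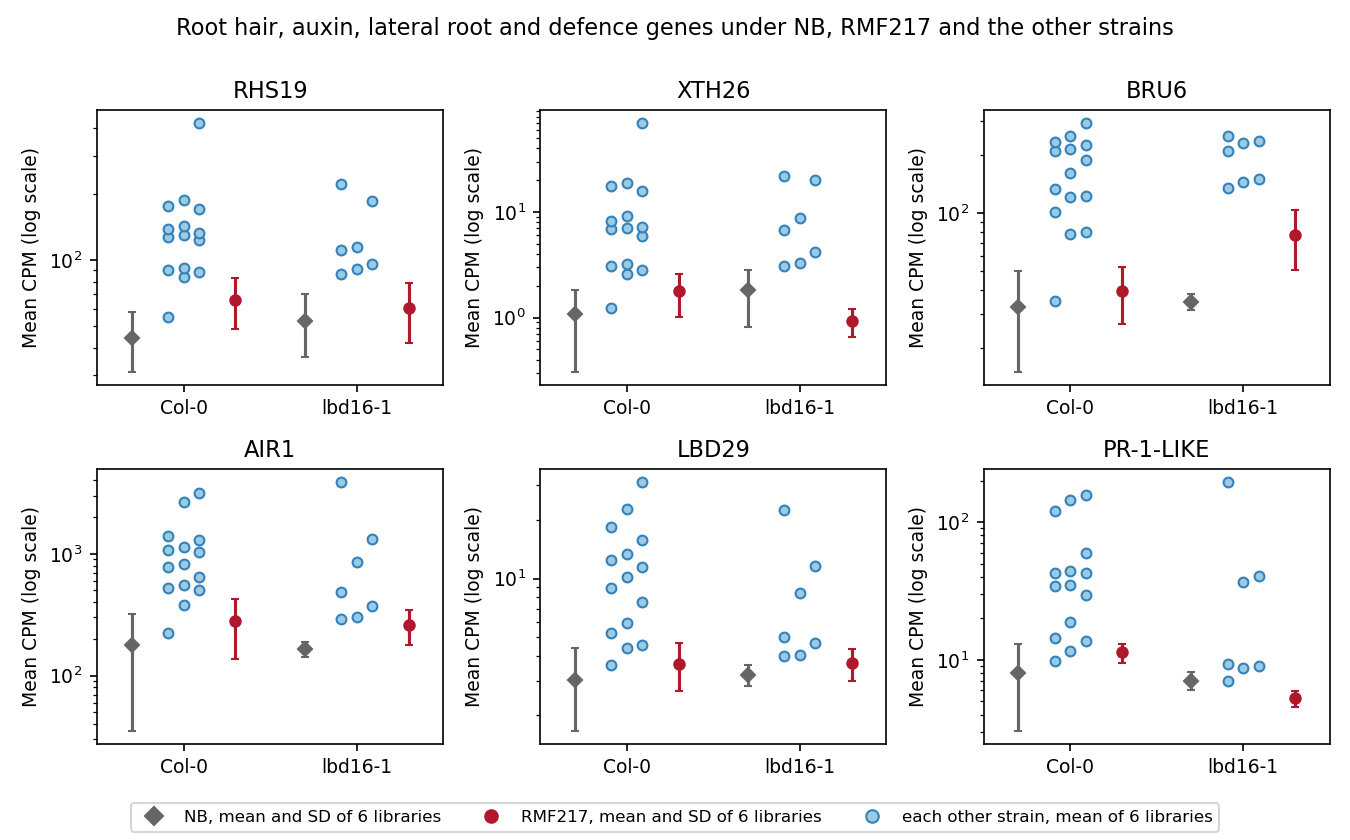
Mean level (log scale, CPM) of 6 genes with NB (diamonds) and RMF217 (filled circles), both with SD of 6 libraries, and with each other strain (pale circles), in Col-0 and *lbd16-1*. RMF217 lies below most other strains: for RHS19, 14 of 15 other strains in Col-0 and 7 of 7 in *lbd16-1* were above it.

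Among other genes lower than with the other strains were *PR-1-LIKE* (AT2G19990), a pathogenesis-related protein, by 1.66 in Col-0 and 1.96 in *lbd16-1* (adjusted p = 3.04e-06 and 5e-06), *EXPB2* (AT1G65680), a wall-loosening expansin, by 2.78 and 1.73 (adjusted p = 2.07e-06 and 0.0168, the latter 0.29 with a variance for each group, 0.0516 without the 2 libraries that stand apart and 0.0502 and 0.0582 without RMF217 1 or 2), and *FLS2* (AT5G46330), the flagellin receptor, by 1.69 and 1.64 (adjusted p = 1.17e-05 and 7.28e-05). With RMF217 *PR-1-LIKE* was at 11.3 CPM in Col-0, where the other strains ran from 9.86 CPM (RCL115) and 11.6 CPM (L384) to 157 CPM (L343). In *lbd16-1* it was at 5.24 CPM. There L359, L384, L76 and L412 were at 7, 8.73, 9.04 and 9.27 CPM, and L343 was highest at 196 CPM. *STP4* (AT3G19930), a sugar transporter, was lower in Col-0 (-0.45, adjusted p = 1.3e-05). The level of *FLS2* was 0.41 ± 0.286 CPM with RMF217 in Col-0 (SD, n = 6).

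On the higher side *AOX1A* was at 114 ± 30.0 CPM with RMF217 in Col-0, a difference of 0.41 from the other strains (adjusted p = 1e-09), and of 0.32 in *lbd16-1* (adjusted p = 9.98e-06). *AT5G09570*, a mitochondrial stress protein with a twin CX9C motif, was higher by 4.17 in Col-0 and 2.21 in *lbd16-1* (adjusted p = 9.76e-32 and 7.1e-07). The NADH dehydrogenase *NDB4* (AT2G20800) was higher by 3.17 and 1.58 (adjusted p = 4.7e-18 and 0.0117, the latter 0.0894 without the 2 libraries that stand apart and 0.0917 and 0.0782 without RMF217 1 or 2), at 0 to 3 CPM in the Col-0 RMF217 libraries. Of the 11 mitochondrial stress genes 5 were higher in each genotype and 0 lower, and 2 were higher in *lbd16-1* without the 2 libraries. Of all genes 11.2% were called higher in Col-0 and 5.17% in *lbd16-1*. Among the high numbers 6 of the 11 were higher in Col-0 and 5 in *lbd16-1*, and among the low numbers 0. The shares of all genes called were 22.8% and 16.8% among the high numbers and 4.79% and 1.62% among the low numbers.

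Phosphate and sulfur genes were also higher. *PAP17* (AT3G17790), an acid phosphatase released when phosphate is short, was at 33 to 46.2 CPM with RMF217 in Col-0, higher than with the other strains by 0.64 (adjusted p = 1.4e-08), and by 0.74 in *lbd16-1* (adjusted p = 3.76e-09). Of 18 phosphate genes 5 were higher in Col-0 and 8 in *lbd16-1*, against 11.2% and 5.17% of all genes called higher. Among the low numbers 2 and 0 of them were higher, and among the high numbers 6 and 8, with 4 lower in Col-0. The shares of all genes called were 4.79% and 1.62% among the low numbers and 22.8% and 16.8% among the high numbers. *LSU1* (AT3G49580), which is induced by sulfur deficiency, was higher by 0.77 and 0.76 (adjusted p = 8.2e-07 and 1.13e-05), and *BGLU28* (AT2G44460), a glucosidase that breaks down glucosinolates, by 1.83 and 2.41 (adjusted p = 4.56e-06 and 4.01e-09). Of 13 sulfur genes 8 were higher in each genotype, beside the same shares of all genes, and in *lbd16-1* 1 was lower. Among the low numbers 4 were higher in Col-0 and 0 in *lbd16-1*, and among the high numbers 9 and 10. *BGLU28* was at 0.23 and 0.43 among the low numbers of Col-0 and *lbd16-1* (adjusted p = 0.887 and 0.834) and at 2.72 and 3.17 among the high numbers, and the ranges differed (adjusted p = 0.00848 and 0.00452). In *lbd16-1* *PAP17* and *LSU1* were not called among the low numbers either (0.20 and 0.19, adjusted p = 0.537 and 0.691), and their ranges differed (adjusted p = 0.000132 and 0.00167).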

How the data were processed

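Root RNA-seq libraries were analysed from the estimated counts per gene that the authors deposited. The authors made these estimated counts with fastp 0.20.1 and Salmon 1.6.0, summing transcripts to genes of an Ensembl Plants annotation. All values were whole numbers and were used as deposited. Identifiers were named from a TAIR10.1 table (32064 of 32311 matched, 99.2%), whose coordinates were not used. The 222 libraries (37 groups of 6) were fitted together with edgeR 4.0.16 (R 4.3.3), with TMM normalization, its expression filter and the robust quasi-likelihood test, and p-values were adjusted within each comparison by the Benjamini-Hochberg method. CPM values are counts scaled to the library total after TMM normalization. The library totals were 10255732 to 24316654, and low genes are the least precise. SE values are the log2 fold change divided by the square root of the F statistic.

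The comparisons were RMF217 against NB in each genotype, the difference of both responses (*lbd16-1* minus Col-0), and RMF217 against the equally weighted mean of the other strains. The strain and the gene lists were chosen with earlier results of these data known, and its libraries were found by their labels. Named genes were up to 8 per direction and comparison with the largest called change, at a mean of at least 1 CPM. Against NB their libraries did not overlap, and against the other strains at least 80% of the other libraries lay beyond all RMF217 libraries. The difference had no condition on overlap. Further named genes were up to 12 per direction called in both genotypes, up to 4 per list in the comparisons with NB or with the other strains, and list members called in the difference. Other alternatives were RLE scaling, other filters, DESeq2 1.42.0, limma 3.58.1 voom with a variance for each group, the number range as a covariate or on its own, the own libraries only, other thresholds and 1 library less. The split by number range (74 groups) and the fits without the 2 libraries that stand apart were chosen after seeing the data, as were the genes named for the split: up to 12 per direction called the same way in both genotypes among the low numbers. The test was also run on simulated counts, with 200 genes changed in Col-0 RMF217. Each simulated gene had the same spread in all groups and no change with the number range. That check thus does not cover the wider spread of Col-0 NB or the split by number range. Genes of multicopy families are uncertain, because reads can be shared among copies.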

Additional observations from a re-analysis of the deposited data

Results flagged for a closer look

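Dixon's critical value for a far library is passed in about 1 group in 20 of independent, normally distributed values. The groups here share libraries and pool both number ranges, so that rate does not apply to them. Of 296 groups of 6 libraries, 31 held a library far from the rest of its group (the gap to the nearest library, divided by the range, above Dixon's critical value). Library 1 of Col-0 NB was such a library for *bHLH38* (51.2 CPM), *BHLH100* (6.85), *UGT74E2* (161), *AT4G33070* (63), *NDB4* (4.72), *AT5G09570* (6.52) and the summed root markers (1882). Library 2 of Col-0 NB was for *AT1G33840* (1.46 CPM), *BRU6* (66.9), *AIR1* (462), *EXPB2* (3.31) and *PR-1-LIKE* (18). Library 3 of that group stood apart for *NAC3* (7.81 CPM) and library 4 for *AT2G01020* (2220 CPM) and for ribosomal RNA (2.17%). With RMF217 in Col-0, library 4 was far from the others for *AT2G29220* (24.7 CPM), *CBP60G* (75.4), *WRKY70* (18.1) and *BRU6* (65.5), library 1 for *HAK5* (66.6), library 2 for *LSU1* (71.9) and library 3 for *CYP708A2* (239). In *lbd16-1* NB, library 6 was for *WRKY70* (14.5 CPM), *ChlAKR* (6.67) and *STP4* (101), library 2 for *BHLH100* (0.618) and *FLS2* (0.574), and library 5 for *AT2G22122* (17.6). With RMF217 in *lbd16-1*, library 3 was for *bHLH39* (44.6 CPM), library 6 for *CYP82C4* (255) and library 1 for the summed photosynthesis genes (5171).

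The responses to RMF217 differed between the genotypes in 911 genes. The difference, *lbd16-1* minus Col-0 on the log2 scale, was positive for the iron regulators *bHLH38* (2.95), *bHLH39* (1.43), *BHLH100* (4.30) and *MYB10* (1.08), for *WRKY29* (0.83), *NAC3* (2.04) and *AT2G01020* (4.75). It was negative for the nutrient transport and sulfur genes *NRT1.1* (-0.95), *SULTR1;1* (-1.14), *SULTR1;2* (-0.68), *ATSDI1* (-1.83) and *HAK5* (-1.96), and for the triterpene genes *THAS1* (-1.33), *CYP708A2* (-1.02), *MRN1* (-2.26) and *CYP71A16* (-0.92). It was also negative for *TT4* (-0.42), *IMS2* (-0.72), *CYP83A1* (-0.60), *ABCG6* (-0.92), *CYP86B1* (-0.75) and *HSP70* (-0.83).

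The response also differed between the number ranges. Against NB in Col-0 it did so in 261 genes, and against the other strains in 923. The change, high minus low, was negative in Col-0 for *CIPK13* (-2.23), *AT5G37450* (-2.54), *AT1G33840* (-4.54), *AT2G22122* (-1.44), *HRS1* (-0.67), *BRU6* (-1.23), *AIR1* (-1.95) and *STP4* (-0.67), and positive for *ChlAKR* (1.32), *UGT74E2* (1.03), *AT2G21640* (2.21), *AOX1A* (0.55), *AT4G33070* (0.97), *ATSDI1* (1.63), *LSU1* (1.23) and *AT2G01020* (5.96). With a variance for each group 2 of these 16 changes, those of *AT2G21640* and *AT2G01020*, were still called, and *HRS1*, *BRU6*, *AIR1*, *STP4*, *ATSDI1* and *LSU1* were at adjusted p = 0.133, 0.333, 0.494, 0.169, 0.183 and 0.183. In *lbd16-1* the counts were 321 against NB and 1110 against the other strains. There the change was negative for *CIPK13* (-1.93), *AT2G22122* (-1.57), *WRKY54* (-1.18), *MYB10* (-1.37), *RHS19* (-1.33) and *RHS13* (-1.28), and positive for *ChlAKR* (1.52), *UGT74E2* (1.19), *AT2G21640* (1.61), *AOX1A* (0.40) and *LHY* (0.51). Without the 2 libraries that stand apart 6 of these 11 were still called, and *MYB10*, *AT2G21640*, *LHY*, *WRKY54* and *AOX1A* were not (adjusted p = 0.109, 0.0641, 0.107, 0.139 and 0.125). Leaving out any of 9 of the 12 libraries also ended the call of *MYB10*, and any of 8 that of *AT2G21640* or *LHY*.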

How the results depend on the processing

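No paired analysis was possible because the labels carry no replicate number that the groups share. In what follows, values are counts of genes called unless named otherwise. For RMF217 against NB in Col-0 the count was 2 with the own libraries only, 20 with voom and a variance for each group, 2190 from the low numbers alone, 28 from the high numbers alone, 178 and 1687 at adjusted p thresholds of 0.01 and 0.1, 85 with a log2 change of at least 1, and 231 to 1674 with 1 library less (lowest without RMF217 6, highest without NB 6). In *lbd16-1* it was 280 with the own libraries, 346 from the high numbers, 473 at 0.01, 180 with the fold threshold and 491 to 1331 with 1 library less. For the difference of the responses it was 149 with the own libraries, 274 with voom, 547 from the low and 413 from the high numbers, 270 at 0.01, 1662 at 0.1, 188 with the fold threshold and 575 to 1204 with 1 library less. Against the other strains Col-0 gave 821 from the low numbers, 2904 at 0.01, 346 with the fold threshold and 3183 to 4867 with 1 library less, and *lbd16-1* gave 263 from the low and 4103 from the high numbers, 1379 without the 2 libraries that stand apart, 1254 at 0.01, 221 with the fold threshold and 1311 to 2668 with 1 library less. Genes called the same way in both genotypes against NB were 0 with the own libraries and with voom, 62 with the number range as a covariate, 320 from the low and 1 from the high numbers, 6 at 0.01, 89 at 0.1, 7 with the fold threshold and 7 to 71 with 1 library less. Against the other strains they were 59 from the low and 2700 from the high numbers, 953 without the 2 libraries, 821 at 0.01, 94 with the fold threshold and 902 to 1725 with 1 library less. In the split model voom gave 220 for the low numbers and 8 between the ranges of Col-0, 477 for the high numbers of *lbd16-1*, and 82 and 2 genes for both genotypes in the low numbers and between the ranges. With 1 library less the split model gave 513 to 5106 and 9 to 50 for the low and high numbers of Col-0, and 1142 to 1544 and 65 to 130 for those of *lbd16-1*. Without the 2 libraries that stand apart it gave 460 between the ranges of Col-0, 65 for the high numbers and 170 between the ranges of *lbd16-1*, 25 between the ranges in both genotypes, and, against the other strains in *lbd16-1*, 2099 for the high numbers and 665 between the ranges. With 1 library less it gave 59 to 1533 and 156 to 325 between the ranges of Col-0 and *lbd16-1*, and for both genotypes 195 to 456 in the low numbers, 0 to 1 in the high numbers and 11 to 71 between the ranges. Against the other strains it gave 164 to 937, 3184 to 3800 and 541 to 800 for the low numbers, the high numbers and their difference in Col-0, 79 to 209, 2101 to 2641 and 509 to 1276 in *lbd16-1*, and 21 to 56, 1690 to 2029 and 233 to 366 in both. Of the named changes between the ranges, 3 of 16 in Col-0 and 3 of 11 in *lbd16-1* kept the call with each library left out in turn. Direction turned for 11 log2 values, none of them called. With the high numbers alone, against NB in Col-0, these were *CIPK13* -0.13, *AT5G37450* -0.20, *AT1G33840* -1.59, *AT2G22122* -0.11 and *AT2G01020* 0.29. With the low numbers alone, against the other strains, they were *AT5G37450* 0.14, *AT2G22122* 0.16 and *AT2G21640* -0.10 in Col-0, and *AT2G21640* -0.17, *ATSDI1* -0.17 and *THAS1* -0.14 in *lbd16-1*. Of 5618 values of the named genes under alternatives, 4862 kept direction and side of the threshold and 745 lost the call. Apart from alternatives that drop samples or move the threshold, the cause was not tested.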
